A study of Mus musculus with 4 samples.

Results

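The genes described here encode the proteins of the mitochondrial ribosome, and were taken as every gene whose symbol begins with Mrpl or Mrps followed by a digit. On the arrays, 76 of the 18193 genes measured met this rule, through 156 probe sets that carry 1 gene symbol each. Of the 76, 49 encode proteins of the large subunit and 26 proteins of the small subunit. Mrps18a and Mrps30 were counted with the large subunit, where their proteins sit in spite of their symbols, and Mrps36 was kept apart because its protein is now assigned to the 2-oxoglutarate dehydrogenase complex. Where a gene had several probe sets, the brightest by mean log2 intensity was read. Mrpl30 and Mrpl53 have no probe set of their own symbol alone and were not analysed here.

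Mitochondrial ribosomes translate the few proteins encoded by mitochondrial DNA, all of which are core subunits of the respiratory chain and ATP synthase. Their RNA is made in the mitochondrion, whereas all of their proteins are encoded in the nucleus, translated in the cytosol and imported. Part of these proteins descend from bacterial ribosomal proteins and part were gained by mitochondria, and in humans inherited defects of several of them, MRPL3, MRPL44 and MRPS22 among them, cause cardiomyopathy.

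RNA labelled as coming from hearts of adult C57BL/6J mice was hybridised to 4 Affymetrix mouse expression arrays, of which 2 are labelled Rhau KO, genotype CAAG-ERT2-Cre;Rhau F/F, and the other 2 Control, genotype Rhau F/F. Both genotypes carried the floxed Rhau alleles and received 5 doses of tamoxifen at 2 months of age, and hearts were collected 2 months after it, so that the groups differ by the Cre transgene, which is driven by the CAAG promoter and not by a heart-specific one. RHAU, the product of Dhx36, is a helicase that unwinds G-quadruplexes, and the comparison addresses what its deletion changed in the adult heart. Nothing in the sources used here says whether replicates were separate animals or pools, so the p-values given cover the spread among these 4 arrays, which may be technical.

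The arrays ran against their labels in part. Dhx36 read 568 and 537 on the arrays labelled Rhau KO and 327 and 194 on those labelled Control (adjusted p = 0.873 by limma). This direction is opposite to the deletion, so groups are called by label throughout. For hearts of this genotype the paper reports effective deletion by Western blot, which measures protein. Why the Dhx36 readings ran the other way was not tested. The 15 skeletal muscle markers summed to 49233 and 49103 on the arrays labelled Rhau KO, against 605264 on Control replicate 1 and 64485 on Control replicate 2. The 15 ventricular cardiomyocyte markers summed to 524476 and 547028 on the arrays labelled Rhau KO, against 126371 on Control replicate 1 and 533262 on Control replicate 2, and Tnni3, cardiac troponin I, read 10.3 on Control replicate 1 against 37838 to 39371 elsewhere. The 8 endothelial markers were each lowest on Control replicate 1, while Control replicate 2 stood apart in Hspa1a, a heat shock protein (18079 against 582 to 1141 on the other 3 arrays). The main results are therefore given with and without Control replicate 1. In whole tissue, fewer cells of a type and less RNA per cell cannot be told apart.

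By the brightest probe set of each gene, transcripts of the mitochondrial ribosome read well above the dim range on every array, and the groups lay close together. The lowest reading of any member by that probe set was 573. By their brightest probe sets, 7324 to 7696 of the 18193 genes read under 100 on an array, as did 51.74% to 53.99% of all probe sets. Taking the brightest probe set favours high readings, and 26 of the 80 other probe sets of the members had a mean under 100. Of the 76 genes, 59 had a higher mean log2 intensity on the arrays labelled Rhau KO than on those labelled Control, against 56.9% of all genes, a count that was 44 when each array was centred on its median (8493 of the 18193 genes). The median log2 difference was 0.23 (quartiles 0.03 and 0.38), or 1.17-fold, against a median of 0.09 over all genes (quartiles -0.3 and 0.47). Centring moved the median of all genes by -0.13, and after it the members stood at 0.10 and all genes at -0.04. The members lay 0.14 above all genes. Centring moves the difference of every gene by the same amount, so it cannot change this gap and is no check of it. No member differed by 2-fold, the range being 0.69-fold (Mrps10) to 1.77-fold (Mrpl44), whereas 19.1% of all genes differed by that much.

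**Figure D1:**
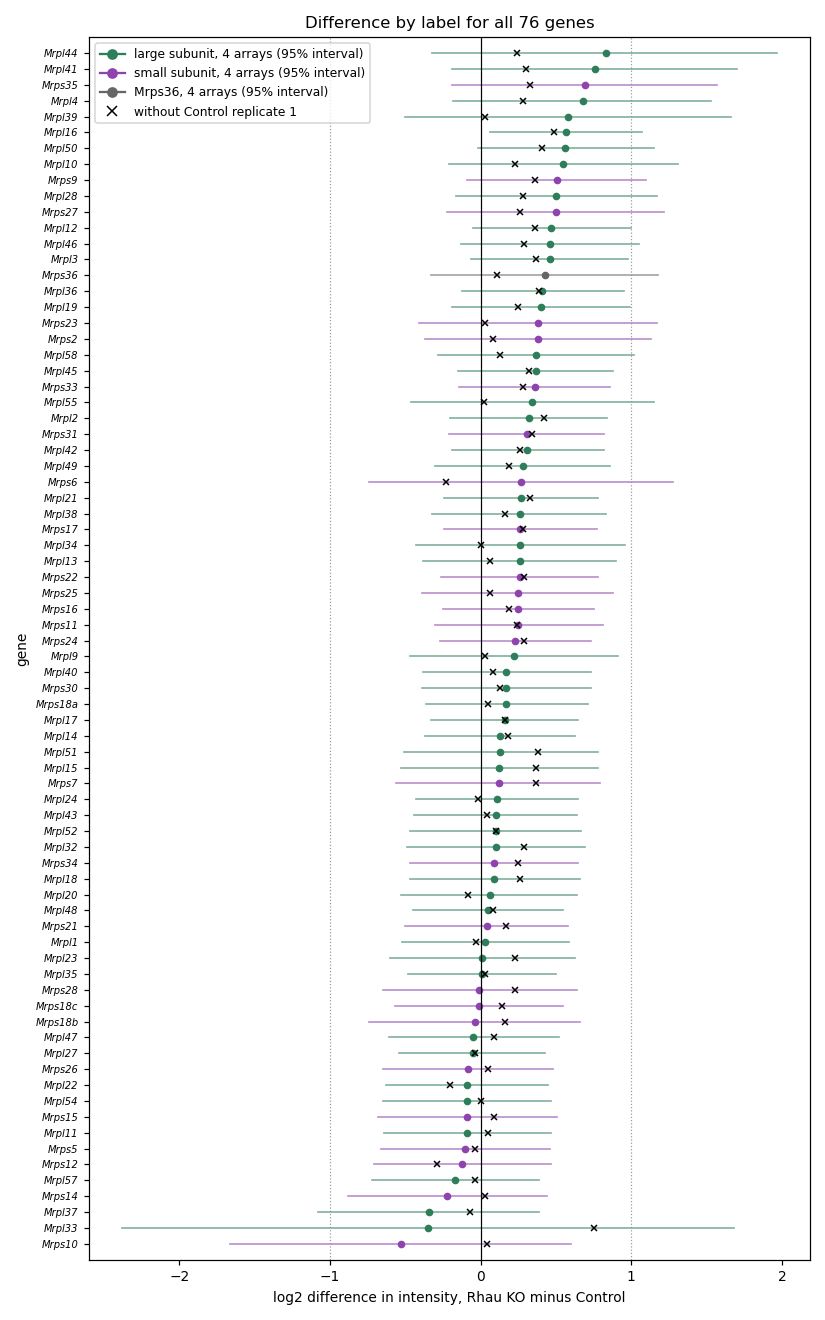
Log2 difference in intensity, arrays labelled Rhau KO minus arrays labelled Control, for all 76 genes in order of size (vertical axis), with 95% intervals from limma over 4 arrays (lines) and the difference without Control replicate 1 (crosses). The points run from -0.53 for Mrps10 to 0.83 for Mrpl44, and the intervals of 75 genes include 0.

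The 95% limma interval of the difference included 0 for 75 of the 76 genes, against 95.7% of all genes. By limma with Benjamini-Hochberg adjustment over all genes, 0 of the 76 passed an adjusted p under 0.05, as for 0.0% of all genes, and their adjusted p-values were all at least 0.87. At an unadjusted p under 0.05, 1 member was called, Mrpl16, against 4.31% of all genes, and 0 members also passed a fold of 2, against 3.29% of all genes. The methods' t-test also called 0 members after adjustment and 10 before it, all 10 higher on the arrays labelled Rhau KO, namely Mrpl3, Mrpl16, Mrpl17, Mrpl21, Mrpl36, Mrpl45, Mrps11, Mrps22, Mrps31 and Mrps33, where over all genes it called 941 before adjustment (5.17%). With 2 arrays in each group, exact permutation could reach no p below 0.333. The standard errors from limma were smaller for the members than for most genes, with a median of 0.22 on the log2 scale against 0.48 over all genes. With the trend in the fit these errors depend in part on intensity. The members were also brighter, at a median intensity of 3394 against 206. The median log2 gap between the Rhau KO arrays was 0.09 for the members, 0.14 for the 9096 brighter genes and 0.27 for all genes. For 55 of the 76 the whole 95% interval of the difference lay within 2-fold in either direction, against 20.7% of all genes. These intervals rest on the same limma standard errors.

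Both arrays labelled Rhau KO lay above both arrays labelled Control for 37 of the 76 genes, against 21.7% of all genes, and below both for 3 (Mrpl27, Mrpl37 and Mrps5), against 14.6% of all genes. For the other 36 the groups overlapped. The arrays of a pair lay closer together in the Rhau KO group, where 69 of 76 genes agreed within 1.2-fold (49.5% of all genes did so), than in the Control group, where 34 did (23.2% of all genes).

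Among large subunit proteins of bacterial descent, 24 of 29 had a higher mean on the arrays labelled Rhau KO, at a median of 0.16 that was 0.03 after median centring. Mrpl16, whose bacterial counterpart lies beside the tRNA binding sites of the large subunit, read 5825 and 5632 on the arrays labelled Rhau KO, against 3673 and 4070 on those labelled Control. The groups did not overlap, at a log2 difference of 0.57 (standard error 0.19, 95% interval 0.06 to 1.07, adjusted p = 0.873 by limma). Without Control replicate 1 the difference was 0.49 (adjusted p = 0.12 from limma), the smallest adjusted p of any member in that comparison.

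Mrpl12, a protein of the stalk that receives translation factors and a reported partner of the mitochondrial RNA polymerase, read 10065 and 9530 on the arrays labelled Rhau KO and 6530 and 7608 on those labelled Control, 0.47 apart on the log2 scale (standard error 0.20). Mrpl3 read 3731 and 3618 on the arrays labelled Rhau KO against 2508 and 2836 on those labelled Control (0.46, standard error 0.20). Mrpl4, which in bacteria lines the exit tunnel, read 4978 and 4907 on the arrays labelled Rhau KO against 2343 and 4078 on those labelled Control (0.68, standard error 0.32). In all 3 genes the arrays labelled Rhau KO were the higher ones and nearly equal to each other, and Control replicate 1 was the lowest array. Without Control replicate 1 their differences were 0.36, 0.37 and 0.28.

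Large subunit proteins gained by mitochondria held the 2 highest differences of the family, and 17 of 20 had a higher mean on the arrays labelled Rhau KO (median 0.22, and 0.09 after median centring). Mrpl44, a protein with an RNase III fold, read 4372 and 4725 on the arrays labelled Rhau KO, 1709 on Control replicate 1 and 3844 on Control replicate 2. The groups were 0.83 apart on the log2 scale (standard error 0.43), and 0.24 without Control replicate 1. Mrpl41 read 7239 and 6704 on the arrays labelled Rhau KO against 3007 and 5658 on those labelled Control (0.76, standard error 0.36, and 0.30 without Control replicate 1). Neither gene overlapped between the groups, and in both Control replicate 1 lay the farther of the Control arrays from the Rhau KO pair.

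Mrpl39, which resembles the threonyl-tRNA synthetases, differed between the groups almost only through Control replicate 1. It read 14217 and 14778 on the arrays labelled Rhau KO, 6650 on Control replicate 1 and 14232 on Control replicate 2, so that 3 arrays were alike and the groups overlapped. Its difference of 0.58 (standard error 0.41) became 0.03 without Control replicate 1. Mrpl42 read 23358 and 21528 on the arrays labelled Rhau KO against 17384 and 18780 on those labelled Control, a smaller difference (0.31, standard error 0.19) that was 0.26 without Control replicate 1. Mrpl51 read 15860 and 15637 on the arrays labelled Rhau KO against 16984 and 12113 on those labelled Control, where the Control arrays lay on either side of the pair (0.13, standard error 0.24).

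Mrpl33, Mrpl37 and Mrpl57, with a lower mean on the arrays labelled Rhau KO, show the reverse placing of Control replicate 1. Mrpl33, a small protein of bacterial descent, read 2728 and 3707 on the arrays labelled Rhau KO, 8648 on Control replicate 1 and 1894 on Control replicate 2. The Control arrays were its highest and its lowest reading, and its difference of -0.35 (standard error 0.76, 95% interval -2.38 to 1.68) turned to 0.75 without Control replicate 1 (adjusted p = 0.203 by limma). Mrpl37 read 891 and 967 on the arrays labelled Rhau KO against 1419 and 977 on those labelled Control (-0.34, standard error 0.28, and -0.07 without Control replicate 1), and Mrpl57 read 3071 and 3383 on the arrays labelled Rhau KO against 3945 and 3312 on those labelled Control (-0.17, standard error 0.21, and -0.04). In Mrpl37 the Control replicate 2 reading was within 1.2-fold of both Rhau KO readings.

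**Figure D2:**
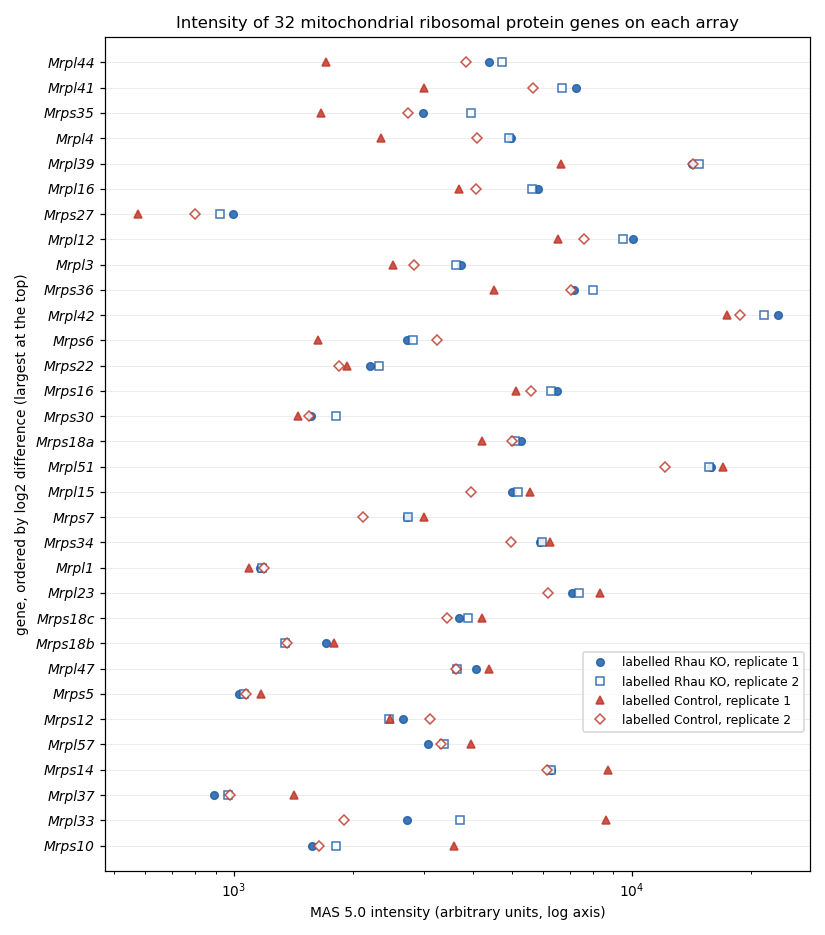
MAS 5.0 intensity (horizontal log axis, arbitrary units) of 32 named genes on each array, blue for the label Rhau KO and red for the label Control, replicate 1 filled and replicate 2 open. Control replicate 1 lies left of the other 3 arrays for Mrpl44 (1709) and Mrpl39 (6650) and right of them for Mrpl33 (8648) and Mrps10 (3587).

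In the small subunit the members counted here as of bacterial descent were divided, with 9 of 15 higher on the arrays labelled Rhau KO. Their median was 0.12, which was -0.01 after median centring. Mrps10 read 1569 and 1804 on the arrays labelled Rhau KO, 3587 on Control replicate 1 and 1641 on Control replicate 2, the lowest difference of the family at -0.53 (standard error 0.43) and 0.04 without Control replicate 1. Mrps14 read 6281 and 6270 on the arrays labelled Rhau KO against 8726 and 6129 on those labelled Control (-0.22, standard error 0.25, and 0.03 without Control replicate 1). In both genes 3 arrays were alike and Control replicate 1 was the highest.

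Mrps12, the counterpart of the bacterial protein at the decoding site, read 2670 and 2455 on the arrays labelled Rhau KO against 2474 and 3122 on those labelled Control (-0.12, standard error 0.22). Mrps6 read 2722 and 2824 on the arrays labelled Rhau KO against 1633 and 3251 on those labelled Control (0.27, standard error 0.38), and -0.23 without Control replicate 1. These are the small subunit genes where Control replicate 2 was the highest array. Mrps7, which binds the head of the subunit, had Control replicate 2 as its lowest array instead, at 2728 and 2746 on the arrays labelled Rhau KO against 3012 and 2112 on those labelled Control (0.12, standard error 0.25, and 0.37 without Control replicate 1). Mrps16, mutated in a human disorder of mitochondrial translation, read 6498 and 6256 on the arrays labelled Rhau KO against 5119 and 5600 on those labelled Control (0.25, standard error 0.19), with no overlap.

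Of the small subunit proteins counted here as gained by mitochondria, Mrps28 among them, 8 of 11 had a higher mean on the arrays labelled Rhau KO. Their median was 0.26, and 0.13 after median centring, and 11 of 11 had a higher mean without Control replicate 1. Mrps35 read 2997 and 3955 on the arrays labelled Rhau KO against 1660 and 2740 on those labelled Control (0.69, standard error 0.33, and 0.33 without Control replicate 1). Mrps27, a pentatricopeptide repeat protein, read 994 and 925 on the arrays labelled Rhau KO against 573 and 800 on those labelled Control (0.50, standard error 0.27), and Mrps22 read 2198 and 2314 on the arrays labelled Rhau KO against 1931 and 1841 on those labelled Control (0.26, standard error 0.20). None of these 3 overlapped between the groups. Mrps34 did, at 5900 and 5945 on the arrays labelled Rhau KO against 6231 and 4972 on those labelled Control (0.09, standard error 0.21).

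The 3 Mrps18 paralogs occupy different places in the ribosome, and were counted in different classes above, Mrps18c with the proteins of bacterial descent and Mrps18a and Mrps18b with those gained by mitochondria, although they are related to it. Mrps18a, of the large subunit, read 5259 and 5099 on the arrays labelled Rhau KO against 4202 and 5019 on those labelled Control (0.17, standard error 0.20). Mrps18b read 1706 and 1345 on the arrays labelled Rhau KO against 1784 and 1358 on those labelled Control (-0.04, standard error 0.26), and Mrps18c read 3676 and 3881 on the arrays labelled Rhau KO against 4213 and 3428 on those labelled Control (-0.01, standard error 0.21). The 95% intervals of Mrps18a (-0.36 to 0.71), Mrps18b (-0.74 to 0.66) and Mrps18c (-0.57 to 0.55) each leave out a 2-fold difference. Mrps30 read 1568 and 1806 on the arrays labelled Rhau KO against 1449 and 1543 on those labelled Control (0.17, standard error 0.21). Mrps36 read 7157 and 8006 on the arrays labelled Rhau KO against 4512 and 7036 on those labelled Control (0.43, standard error 0.28, and 0.11 without Control replicate 1).

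The other 44 members ranged from -0.09 to 0.56 on the log2 scale, and from -0.20 to 0.42 without Control replicate 1. Of these, 37 had a higher mean on the arrays labelled Rhau KO, and in 23 both of those arrays lay above both labelled Control, against 21.7% of all genes. A few, picked after their values were seen, had close replicates in both groups. Mrpl17 read 4494 and 4412 on the arrays labelled Rhau KO against 3974 and 3996 on those labelled Control (0.16, standard error 0.18, and 0.16 without Control replicate 1). Mrps31 read 2240 and 2267 on the arrays labelled Rhau KO against 1865 and 1780 on those labelled Control (0.31, standard error 0.19, and 0.34), and Mrpl45 read 2776 and 2591 on the arrays labelled Rhau KO against 2016 and 2146 on those labelled Control (0.37, standard error 0.20, and 0.32). In these 3 genes the groups did not overlap and the difference stayed much the same without Control replicate 1. Mrpl35 and Mrpl27 also had close replicates, with no such distance, at 5065 and 4783 on the arrays labelled Rhau KO against 4931 and 4828 on those labelled Control for Mrpl35 (0.01, standard error 0.18), and at 4701 and 4666 on the arrays labelled Rhau KO against 4904 and 4806 on those labelled Control for Mrpl27 (-0.05, standard error 0.18).

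Control replicate 1 was the lowest of the 4 arrays for 41 of the 76 genes (53.9%, against 40.0% of all genes) and the highest for 23 (30.3%, against 29.9%). By subunit, it was lowest for 30 of 49 large subunit genes (61.2%) and 10 of 26 small subunit genes (38.5%), and highest for 12 (24.5%) and 11 (42.3%), counts that were not tested. It lay over 2-fold below the mean of the other 3 arrays for 3 members (Mrpl44, Mrpl39 and Mrpl41) and over 2-fold above it for 2 (Mrpl33 and Mrps10). Over all genes 18.0% and 13.0% did so, and 13 of the 15 skeletal muscle markers lay over 2-fold above. The part of the skeletal muscle transcripts of that array in the members' values was not tested.

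**Figure D3:**
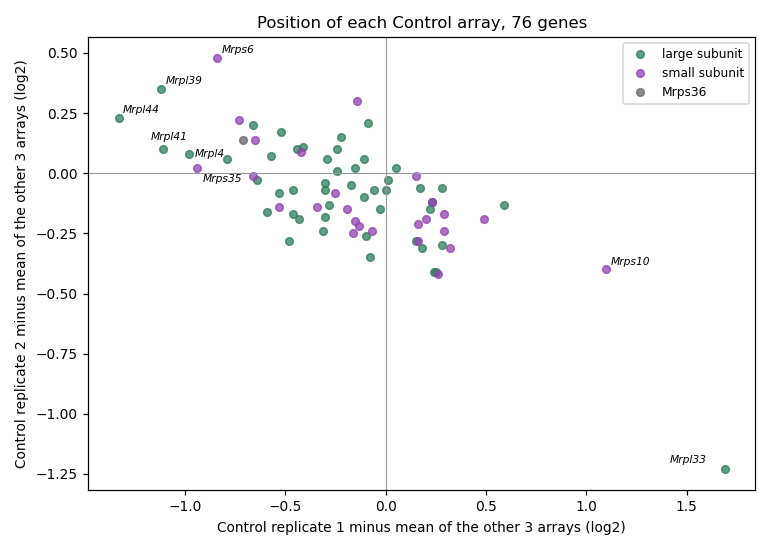
Each point is 1 of the 76 genes, placed by the log2 intensity of Control replicate 1 minus the mean of the other 3 arrays (horizontal) and of Control replicate 2 minus the mean of the other 3 arrays (vertical). Control replicate 1 spreads from -1.33 (Mrpl44) to 1.69 (Mrpl33) and Control replicate 2 from -1.23 (Mrpl33) to 0.48 (Mrps6).

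Without Control replicate 1 the differences narrowed and more of them ran one way. Of the 76 genes, 66 then had a higher mean on the arrays labelled Rhau KO, against 52.8% of all genes, with a median of 0.17 against 0.03 over all genes, and 0.10 for the members after median centring, where 51 were higher. Both arrays labelled Rhau KO lay above Control replicate 2 for 54 genes, against 39.6% of all genes, and below it for 7, against 33.3% of all genes. By limma, 24 members were higher at an unadjusted p under 0.05, against 7.51% of all genes, and 0 were lower, against 5.82% of all genes. After adjustment 0 members passed, against 0.819% of all genes. The 24 include Mrpl3, Mrpl4, Mrpl12, Mrpl15, Mrpl16, Mrpl33, Mrpl41, Mrpl42, Mrpl51, Mrps7, Mrps22 and Mrps34, and their differences were 0.25 (Mrps34) to 0.75 (Mrpl33). This comparison rests on a lone Control array, which is assumed to vary like the others and was itself the lowest array for 24 of the 76 genes (31.6%, against 24.6% of all genes).

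Leaving out Control replicate 2 instead, which sets the Rhau KO pair against Control replicate 1 alone, brought 28 members past an adjusted p under 0.05 in limma, 24 higher and 4 lower on the arrays labelled Rhau KO, against 22.5% of all genes. Then 52 of the 76 were higher and the median was 0.23. Calls were thus made only with the array that carried skeletal muscle transcripts as the sole Control, and leaving out either Rhau KO array gave 0.

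Different probe sets of the same gene mostly gave the same direction where they were bright. Of the 76 genes 34 had 1 probe set and 42 had several, and of the 108 probe sets with a mean intensity of at least 500, 85 read higher on the arrays labelled Rhau KO. Among 22 genes with several such probe sets, 3 had opposite signs (Mrpl15, Mrpl52 and Mrps14). The 4 probe sets of Mrpl44 gave 0.83, 0.56, 0.30 and 0.67, and the 2 bright ones of Mrpl41 gave 0.76 and 0.65. The second bright probe set of Mrpl3 read 2207 and 1732 on the arrays labelled Rhau KO against 1383 and 1504 on those labelled Control (0.44, standard error 0.23).

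In Mrps14 the brightest probe set gave -0.22, while a second one read 589 and 575 on the arrays labelled Rhau KO against 411 and 542 on those labelled Control (0.30, standard error 0.27), with Control replicate 1 the highest array in one and the lowest in the other. Mrpl15 had 8 probe sets, of which the 4 bright ones lay between -0.07 and 0.12. The probe set used for Mrpl15 is of the kind whose name marks probes that can bind other transcripts. Probe sets of opposite sign and over 1 apart were found in 4 genes (Mrpl1, Mrpl15, Mrpl47 and Mrps5), each time with a dim probe set, such as that of Mrpl1 at 10.8 and 16.4 on the arrays labelled Rhau KO against 20.6 and 43.3 on those labelled Control. The used probe sets of Mrpl1 (0.03, standard error 0.21), Mrpl47 (-0.05, standard error 0.21) and Mrps5 (-0.10, standard error 0.21) lay near 0, as did that of Mrpl23 (0.01, standard error 0.23), whose Control readings of 8307 and 6166 enclosed 7095 and 7363 on the arrays labelled Rhau KO.

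**Figure D4:**
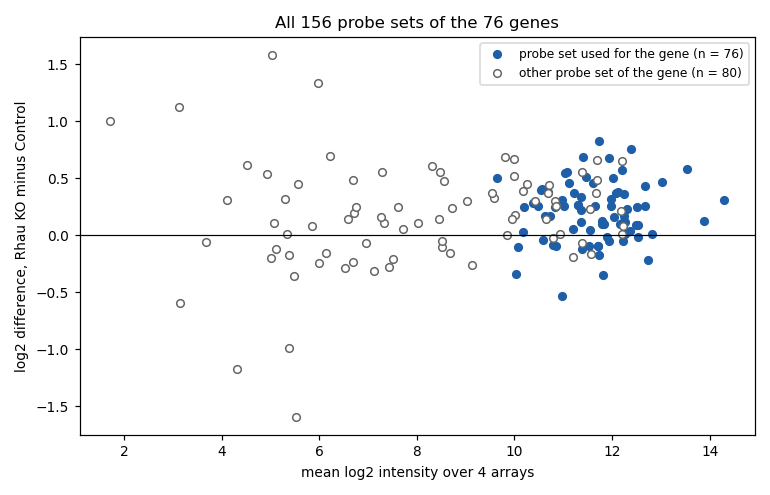
Each point is 1 of the 156 probe sets of the 76 genes, by mean log2 intensity over 4 arrays (horizontal) and log2 difference, arrays labelled Rhau KO minus arrays labelled Control (vertical), with the probe set used for the gene filled. The used probe sets stay between -0.53 and 0.83, and the widest differences belong to dim probe sets that were not used.

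Promoters are shown because these genes are scattered over the genome and are known targets of shared activators of mitochondrial genes, NRF-1, the ETS factor GABP (also called NRF-2) and YY1. RefSeq promoter windows (GRCm38.p6, 250 bases before to 50 after the start) matched 67 of the 76 genes, with 73 windows in all. They were searched on both strands for 3 core motifs, GCGCATGC for NRF-1, CCGGAAG for ETS factors and AAGATGGCG for YY1. The NRF-1 core was in 11.0% of the windows, against 2.71% of all promoters of the table and 4.05% of those of genes on the arrays. The ETS core was in 34.2%, against 8.86% and 13.0%, and the YY1 core in 11.0%, against 1.4% and 2.1%. At least 1 of the 3 was in 47.9% of the windows, against 12.1% of all promoters, and matches of different motifs overlapped in 0 windows. For comparison, windows of cytosolic ribosomal protein genes held the ETS core in 41.7% and the NRF-1 core in 4.17%, and those of oxidative phosphorylation genes in 22.2% and 12.7%. A match is a run of letters and not a measured site.

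The bases before the start around the NRF-1 core, in capitals on either strand, are given for the genes described by array that hold it there, which include Mrpl33 and Mrpl39 whose Control arrays lay far apart. In Mrpl39 the capitals join 2 overlapping matches, GCGCATGC and its reverse complement GCATGCGC, that begin 125 and 123 bases before the start.
Mrpl17, chr7:105811088-105811114 (reverse strand), 11 bases before the start: cacgcgccgagttactGCGCATGCgtc
Mrpl33, chr5:31613923-31613950 (forward strand), 12 bases before the start: ccttctaccggaacccGCGCATGCcccg
Mrpl39, chr16:84735346-84735385 (reverse strand), 125 bases before the start: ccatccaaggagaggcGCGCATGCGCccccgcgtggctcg
Mrps18b, chr17:35916640-35916679 (reverse strand), 223 bases before the start: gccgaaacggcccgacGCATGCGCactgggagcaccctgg

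The same is given for the ETS core in the 9 genes described by array that hold it there. These are a part of the 25 genes with the core anywhere in the window. Some of them were described after their values were seen, so their differences do not stand for genes with the core.
Mrpl3, chr9:105053233-105053267 (forward strand), 19 bases before the start: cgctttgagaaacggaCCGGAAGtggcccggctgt
Mrpl51, chr6:125192094-125192132 (forward strand), 90 bases before the start: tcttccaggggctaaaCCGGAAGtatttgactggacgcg
Mrps22, chr9:98601680-98601706 (reverse strand), 11 bases before the start: acaaaaacctctcgagCCGGAAGttgc
Mrps27, chr13:99344722-99344760 (forward strand), 48 bases before the start: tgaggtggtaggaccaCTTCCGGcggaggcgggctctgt
Mrps16, chr14:20393542-20393580 (reverse strand), 74 bases before the start: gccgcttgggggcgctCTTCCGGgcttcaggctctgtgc
Mrps18a, chr17:46110962-46111000 (forward strand), 26 bases before the start: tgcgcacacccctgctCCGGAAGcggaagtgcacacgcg
Mrps18c, chr5:100798587-100798625 (forward strand), 156 bases before the start: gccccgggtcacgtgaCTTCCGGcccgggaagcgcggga
Mrpl17, chr7:105811302-105811337 (reverse strand), 237 bases before the start: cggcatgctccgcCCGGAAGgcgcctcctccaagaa
Mrpl27, chr11:94653720-94653758 (forward strand), 55 bases before the start: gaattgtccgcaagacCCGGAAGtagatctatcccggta

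For the YY1 core, Mrpl36 is shown, chosen after its values were seen (1789 and 1697 on the arrays labelled Rhau KO, against 1285 and 1330 on those labelled Control, 0.41 apart on the log2 scale with a standard error of 0.20).
Mrpl36, chr13:73330962-73331002 (forward strand), 31 bases before the start: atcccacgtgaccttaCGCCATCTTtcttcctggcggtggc

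The median log2 difference by label was 0.13 for the 8 genes with the NRF-1 core and 0.25 for the 59 without, 0.10 for the 25 with the ETS core and 0.26 for the 42 without, and 0.24 for the 8 with the YY1 core and 0.17 for the 59 without, and these were not tested.

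Other genes of mitochondrial translation lay on the same side. After median centring the medians of these lists ran from 0.03 (translation factors) to 0.31 (ribosomal proteins under other symbols). Proteins of the mitochondrial ribosome under other symbols had a higher mean on the arrays labelled Rhau KO in 3 of 4 (median 0.45), with Dap3 of the small subunit at 6105 and 6639 on the arrays labelled Rhau KO against 3694 and 5934 on those labelled Control (0.44, standard error 0.29). Assembly factors were higher in 19 of 22 (median 0.23), and 3 of them had an unadjusted limma p under 0.05, against 4.31% of all genes. Mettl17, a factor of small subunit assembly, read 810 and 691 on the arrays labelled Rhau KO against 379 and 410 on those labelled Control (0.92, standard error 0.25), and 0.87 without Control replicate 1. The other 2 were Mettl15, which methylates the small subunit RNA (0.72, standard error 0.26), and Rbfa, which acts in maturation of that RNA (0.64, standard error 0.23).

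Aminoacyl-tRNA synthetases of mitochondria and the enzymes listed with them, which charge its tRNAs, were higher in 17 of 19 (median 0.37), and for 14 of them both arrays labelled Rhau KO lay above both labelled Control, against 21.7% of all genes. Lars2, the leucyl-tRNA synthetase, read 1670 and 1647 on the arrays labelled Rhau KO against 1127 and 870 on those labelled Control (0.74, standard error 0.24), and 0.93 without Control replicate 1 (adjusted p = 0.0521 by limma). Translation factors were higher in 11 of 13 (median 0.16), led by Mtfmt, which formylates the initiator tRNA (0.77, standard error 0.27). After median centring their median was 0.03 and 7 were higher. Genes of mitochondrial DNA transcription and replication were higher in 10 of 11 (median 0.17), and in 8 after median centring (median 0.03). None of these genes passed an adjusted p under 0.05 with 4 arrays or without Control replicate 1.

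Of 10 regulators of mitochondrial genes, 4 had a higher mean on the arrays labelled Rhau KO (median -0.05). Ppargc1a, which encodes the coactivator PGC-1α, read 8032 and 7631 on the arrays labelled Rhau KO against 3021 and 5600 on those labelled Control (0.93, standard error 0.35), and 0.48 without Control replicate 1. Its groups did not overlap, and Yy1 ran the other way at 1926 and 2068 on the arrays labelled Rhau KO against 3077 and 2142 on those labelled Control (-0.36, standard error 0.26). Outside the naming rule, the genes of NRF-1 and GABP gave -0.06 for Nrf1 (standard error 0.36), -0.11 for Gabpa (0.22) and -0.05 for Gabpb1 (0.38).

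The nuclear genes of the respiratory chain and ATP synthase were nearly all lowest on Control replicate 1. Of 70 oxidative phosphorylation genes 69 had a higher mean on the arrays labelled Rhau KO (median 0.17, and 0.04 after median centring), and Control replicate 1 was the lowest array for 67 (95.7%). Without it their median was 0.05. Of the cytosolic ribosomal protein genes, 21 of 46 were higher, at a median of -0.02, which was -0.15 after median centring and 0.01 without Control replicate 1. The difference between these lists was not tested.

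**Figure D5:**
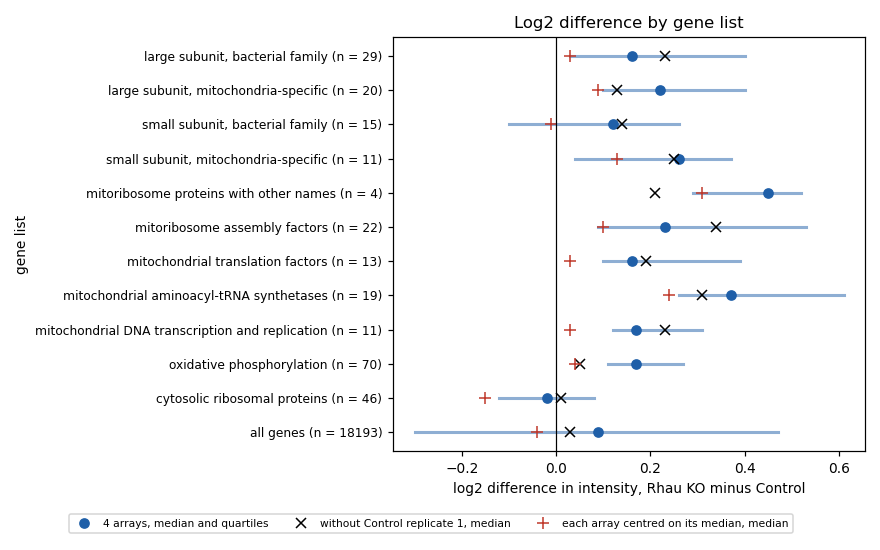
Median log2 difference, arrays labelled Rhau KO minus arrays labelled Control, for each gene list (points, with quartiles as lines), the median without Control replicate 1 (crosses) and after centring each array on its median (plus signs). The 4 classes of mitochondrial ribosomal proteins lie at 0.12 to 0.26 with 4 arrays, and cytosolic ribosomal proteins at -0.02.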

How the data were processed

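Heart RNA of 2 arrays labelled Rhau KO and 2 labelled Control was measured on Affymetrix mouse expression arrays. The intensity values used are those the authors deposited, computed by them with the MAS 5.0 algorithm, linear and scaled to a 2% trimmed mean of 500.0 on every array. Detection calls and scan dates were not used here, and the number of arrays limits the precision. Of 45101 probe sets, 64 controls were left out, and 34945 with 1 gene symbol gave 18193 genes, each by its probe set of highest mean log2 intensity. Differences of log2 intensity (Rhau KO minus Control) were fitted by limma 3.58.1 (lmFit, then eBayes with trend; R 4.3.3), with Benjamini-Hochberg adjustment over all genes, and also counted at a fold of 2 with an unadjusted p of 0.05. The code was tested on simulated arrays.

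Members, gene lists, alternatives and the rule for naming genes were chosen with earlier results of these data known. The rule named members past the thresholds, the 6 brightest and 4 dimmest, the 6 highest and 6 lowest differences, the 4 farthest above and 4 farthest below on each Control array, those with discordant probe sets and 12 for their roles, and up to 3 genes of the smallest p in other lists. Genes called only by another test or setting, and the other probe sets shown, were named after their values were seen. The fits were repeated with quantile normalization, with median centring, with eBayes without a trend, with a pseudocount of 32, on the 9096 brighter genes, on each gene's averaged probe sets, with the replicate number as a block, with the two-tailed Student test that the methods name, and leaving out each array. Python 3.11.15, numpy 2.4.6, pandas 2.3.3 and matplotlib 3.10.9 were used.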

Additional observations from a re-analysis of the deposited data

How the results depend on the processing

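No member passed an adjusted p under 0.05 or both thresholds (2-fold, and unadjusted p under 0.05) under the alternatives run, apart from leaving out Control replicate 2. The counts over the leave-one-out fits were 0 to 28 (adjusted) and 0 to 7 (both thresholds), 52 to 66 genes higher on the arrays labelled Rhau KO, a median log2 difference of 0.17 to 0.23, and 50 to 71 genes without overlap between groups against 40 with 4 arrays, since fewer arrays overlap less often by construction. Median centring gave a median of 0.10 and 44 higher genes, and 0.10 also without Control replicate 1. Without Control replicate 1, genes without overlap numbered 65 with the mean of all probe sets, 61 with the brighter genes alone and 59 with median centring.

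The replicate number as a block left 59 genes higher and the median at 0.23, with 0 calls. Same-numbered arrays did not deviate together (r = 0.00603 across 18193 genes, which are not independent replicates), so the numbers were not taken to pair the arrays.

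Of 448 values of the 32 named members under other settings, 395 kept their sign and 53 did not, and the cause was not tested. Quantile normalization turned Mrpl47 (0.01) and Mrps18c (0.05). Median centring turned Mrpl1 (-0.10), Mrpl15 (-0.01), Mrpl23 (-0.12), Mrps34 (-0.04) and Mrps7 (-0.01). The mean of all probe sets turned Mrpl1 (-0.41), Mrpl57 (0.04), Mrps14 (0.18) and Mrps5 (0.20). Without Control replicate 1, with or without the brightness filter, Mrpl1 (-0.03), Mrpl33 (0.75), Mrpl47 (0.09), Mrps10 (0.04), Mrps14 (0.03), Mrps18b (0.16), Mrps18c (0.14) and Mrps6 (-0.23) turned. With median centring added these were Mrpl1 (-0.10), Mrpl33 (0.68), Mrpl39 (-0.04), Mrpl47 (0.02), Mrps18a (-0.02), Mrps18b (0.09), Mrps18c (0.07) and Mrps6 (-0.30), and with averaged probe sets added Mrpl1 (-0.46), Mrpl33 (0.26), Mrpl57 (0.19), Mrps10 (0.12), Mrps14 (0.22), Mrps18b (0.16), Mrps18c (0.14) and Mrps6 (-0.14). Leaving out each array in turn gave ranges across 0 of -0.16 to 0.14 for Mrps18c, -0.20 to 0.23 for Mrpl23, -0.19 to 0.09 for Mrpl47, -0.24 to 0.16 for Mrps18b, -0.03 to 0.10 for Mrpl1, -1.44 to 0.75 for Mrpl33, -1.09 to 0.04 for Mrps10, -0.48 to 0.03 for Mrps14, -0.23 to 0.76 for Mrps6, -0.12 to 0.37 for Mrpl15, -0.11 to 0.38 for Mrpl51, -0.29 to 0.05 for Mrps12, -0.07 to 0.25 for Mrps34 and -0.14 to 0.37 for Mrps7.

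With 2 arrays a group, and 1 Control array that carried skeletal muscle transcripts, all 76 members differed by under 2-fold. The groups overlapped for 36 members and did not overlap for 40, with 37 higher and 3 lower on the arrays labelled Rhau KO. By limma with 4 arrays, the interval of the difference included 0 for 75 members, and 0 passed an adjusted p under 0.05.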
